A study of Mus musculus with 10 samples.

Results

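Iron uptake, recycling and storage were followed in the spleen through 10 genes, chosen by name: Tfrc, Slc25a37, Slc40a1, Slc11a1, Hmox1, Spic, Fth1, Ftl1, Hamp and Hamp2. The probe-to-gene table of the array tied 20 probe sets to them, of 45037 probe sets on the array. Of these, 16 carried the symbol of a single listed gene and 4 carried a second symbol as well, among them all 3 Ftl1 probe sets, which also match Ftl1-ps2. A filter kept a probe set whose log2 signal exceeded the median of its array on at least 2 arrays. It kept 23805 probe sets, with 13 of the 16, and 8 of the 10 genes therefore entered the tests: Ftl1 had no probe set of its own, and both Hamp probe sets were below the filter.

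The data were 1 Affymetrix expression array for each of 10 female BALB/c mice, hybridised with RNA from a piece of spleen. Every mouse had been injected intraperitoneally with 100 µg of cartilage proteoglycan (PG) in 2 mg of the adjuvant dimethyldioctadecyl-ammonium bromide (DDA) on days 0, 21 and 42, which induces arthritis in this strain, so no group was without immunization. The groups were 2 old arthritic mice of 9 months, 2 old non-arthritic mice of 7 and 5 months, 2 young arthritic mice of 5 and 4 months, and 4 young non-arthritic mice of 3, 3, 2 and 1 months. Arthritic mice were therefore older than non-arthritic mice within both age classes, and the labels do not say whether age was counted at the first injection or at harvest.

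Iron reaches the cell bound to transferrin, which the transferrin receptor takes up, and red cell precursors use most of it for heme. Red pulp macrophages of the spleen engulf aged red cells, break down their heme, and store the iron in ferritin or release it through ferroportin. Hepcidin, a peptide hormone made mainly by the liver, removes ferroportin from the cell surface and so holds iron inside the cell.

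Median log2 signals of the arrays were 6.88 to 6.96, and the correlation between arrays was 0.981 to 0.997. Old arthritic mouse 2 stood apart on the first principal component, with a score of 52.6 against 19.6 for the next array. Defining markers of erythroid cells (8 genes with a probe set), red pulp macrophages (8 genes), neutrophils (7 genes) and lymphocytes (6 genes) were above the median on all 10 arrays. In RNA from whole tissue, fewer cells of a type and less RNA per cell cannot be told apart.

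Tfrc, the transferrin receptor, had its highest signal in the old arthritic spleens. Its brightest probe set (1452661_at) read 13.46 and 13.42 in the old arthritic mice and 13.07 and 13.29 in the old non-arthritic mice. The young arthritic mice read 13.19 and 13.32, and the young non-arthritic mice 13.24, 12.47, 13.26 and 12.92. The old arthritic values were above those of every other mouse, while the young groups overlapped, with young non-arthritic mouse 2 the lowest of all.

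The other Tfrc probe sets gave the same order for the old arthritic mice and a wider range. Probe set 1422967_a_at read 10.08 and 9.99 in the old arthritic mice, 9.47 and 9.44 in the old non-arthritic mice, and 9.13 and 9.43 in the young arthritic mice. In the young non-arthritic mice it read 9.68, 8.40, 9.04 and 8.85, so young non-arthritic mouse 1 came next after the old arthritic mice and mouse 2 was again the lowest. Over the 10 arrays the 3 probe sets correlated with one another with r between 0.865 and 0.991.

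Slc25a37 is mitoferrin-1, which carries iron into the mitochondria of red cell precursors. Its signal (1417750_a_at) was 13.23 and 13.26 in the old arthritic mice and 13.22 and 13.09 in the old non-arthritic mice. It was 12.84 and 13.20 in the young arthritic mice and 12.89, 11.97, 13.03 and 12.74 in the young non-arthritic mice. The old arthritic mice were again highest by a narrow margin, and young non-arthritic mouse 2 was again lowest. A second Slc25a37 probe set, shared with Gm16867, was below the median on all 10 arrays.

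None of these differences passed the test between groups. In old mice the arthritic minus non-arthritic log2 difference of Tfrc was 0.26 (SE 0.23, limma adjusted p = 0.558) and that of Slc25a37 was 0.09 (SE 0.30, adjusted p = 0.891). In young mice the differences were 0.29 (SE 0.20, adjusted p = 0.464) and 0.36 (SE 0.26, adjusted p = 0.465). Without young non-arthritic mouse 2, the difference in young mice was 0.12 (SE 0.13) for Tfrc and 0.13 (SE 0.13) for Slc25a37, so the size of both rested largely on this 1 array. Between old and young non-arthritic mice Slc25a37 differed by 0.50 (SE 0.26, adjusted p = 0.997), or by 0.27 without that mouse.

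**Figure D1:**
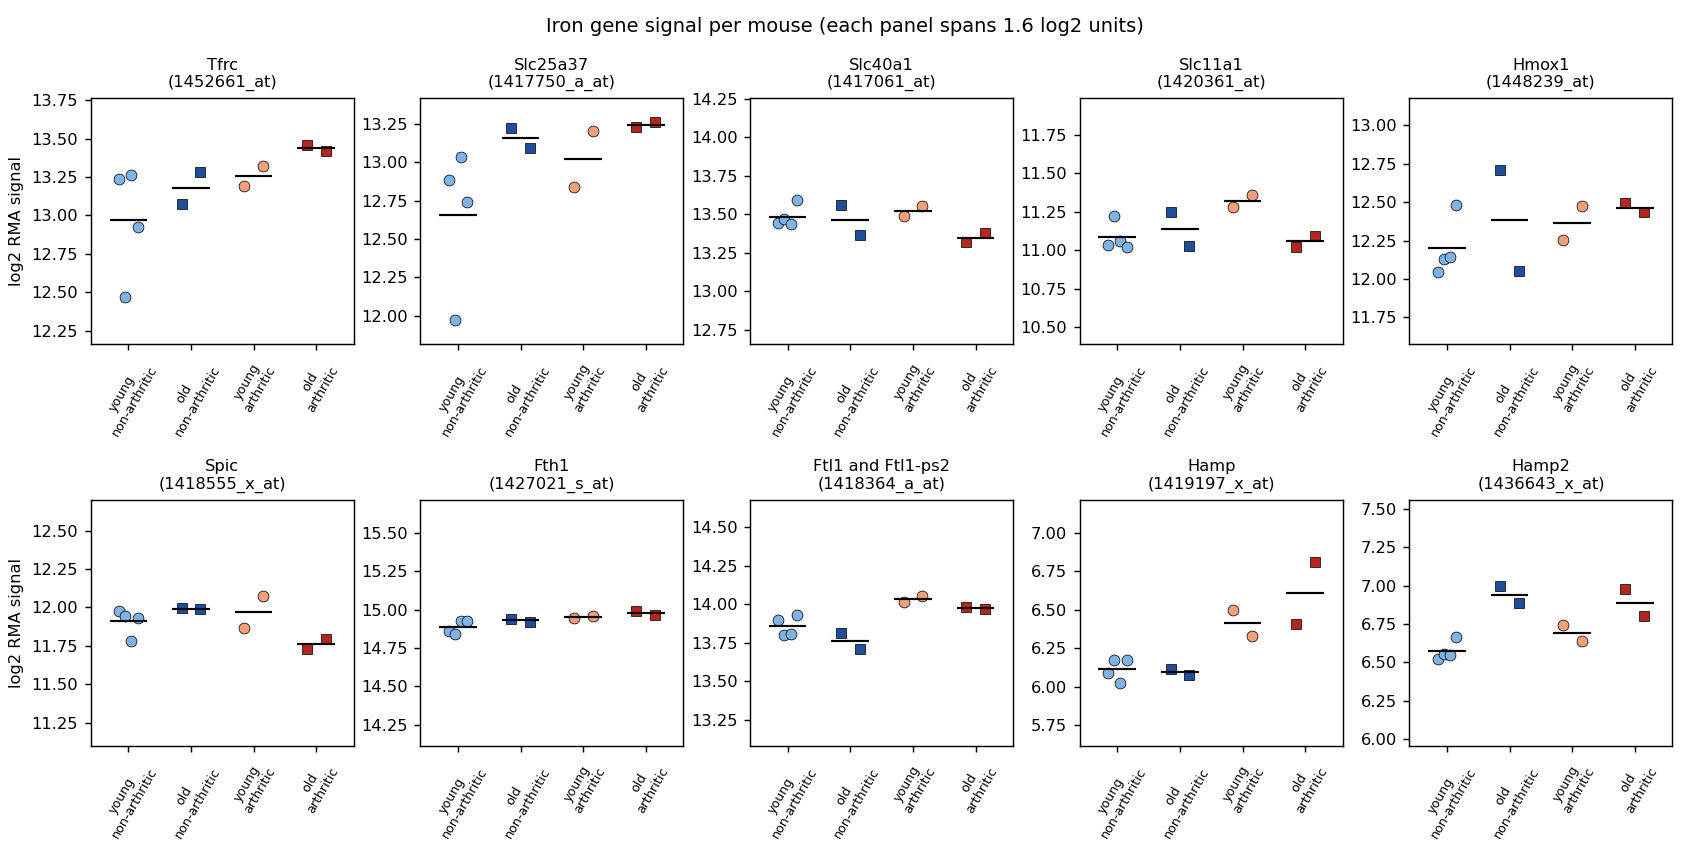
Log2 RMA signal (vertical axis, each panel 1.6 log2 units high) of 10 iron probe sets, 1 point per mouse, in the 4 groups on the horizontal axis, with a bar at the group mean. Tfrc and Slc25a37 are highest in the 2 old arthritic mice and spread most in the 4 young non-arthritic mice, whereas Slc40a1 and Fth1 stay within narrow bands.

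The promoter of Tfrc is shown because its probe sets 1422966_a_at and 1422967_a_at had the widest ranges of the iron probe sets kept, although the brightest Tfrc probe set had a narrower range than Slc25a37. RefSeq lists 2 start sites for it, and the 250 bases before the downstream one (GRCm38.p6, chr16:32608872-32609121, plus strand) are printed here. Capitals mark ACGTG, the core of a hypoxia response element, and TGACGT, which resembles a cyclic AMP response element, both searched on both strands and not overlapping here.
Tfrc: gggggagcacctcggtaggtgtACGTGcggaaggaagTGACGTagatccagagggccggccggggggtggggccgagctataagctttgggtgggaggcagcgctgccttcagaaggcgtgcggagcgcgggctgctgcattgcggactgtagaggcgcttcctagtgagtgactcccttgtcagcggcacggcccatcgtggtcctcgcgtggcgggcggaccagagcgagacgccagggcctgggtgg
The first letters lay at positions -228 and -213 from the start, and the 250 bases before the upstream start held neither motif. In the same span of 32851 RefSeq mouse promoters, 16.6% held ACGTG and 6.47% held TGACGT, so neither match is rare.

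Slc40a1, the iron exporter ferroportin, varied little. Its signal (1417061_at) was 13.32 and 13.38 in the old arthritic mice and 13.56 and 13.36 in the old non-arthritic mice. It was 13.49 and 13.56 in the young arthritic mice and 13.44, 13.47, 13.43 and 13.59 in the young non-arthritic mice. The lowest value belonged to an old arthritic mouse, but the old groups overlapped, and the highest signal was 1.21-fold the lowest. The difference was -0.11 in old mice (SE 0.10, limma adjusted p = 0.560, 95% interval -0.34 to 0.11) and 0.04 in young mice (SE 0.09, 95% interval -0.16 to 0.23), which leaves room for small changes in either direction.

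Slc11a1 (Nramp1), which pumps iron and manganese out of the phagosomes of macrophages and neutrophils, was 11.02 and 11.09 in the old arthritic mice and 11.25 and 11.03 in the old non-arthritic mice. It was 11.28 and 11.36 in the young arthritic mice against 11.03, 11.22, 11.06 and 11.02 in the young non-arthritic mice. Both young arthritic mice were above all 4 young non-arthritic mice, whereas the old groups overlapped. The difference in young mice was 0.24 (SE 0.09, unadjusted p = 0.0328) and did not pass after adjustment (limma adjusted p = 0.237). After a further quantile normalization it was 0.10 (adjusted p = 0.754).

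Hmox1, heme oxygenase-1, opens the heme ring and frees its iron. It read 12.49 and 12.44 in the old arthritic mice, 12.71 and 12.05 in the old non-arthritic mice, 12.25 and 12.48 in the young arthritic mice, and 12.04, 12.13, 12.15 and 12.48 in the young non-arthritic mice. The old non-arthritic mice were the highest and among the lowest of all 10, and every pair of groups compared overlapped. The difference in old mice was 0.08 (SE 0.21, limma adjusted p = 0.853). It was 0.41 without old non-arthritic mouse 1 and -0.25 without old non-arthritic mouse 2, so its sign rested on which of these mice was kept.

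Spic encodes the transcription factor on which red pulp macrophages depend. Its brighter probe set (1418555_x_at) was 11.73 and 11.79 in the old arthritic mice and 12.00 and 11.99 in the old non-arthritic mice. It was 11.86 and 12.07 in the young arthritic mice and 11.98, 11.95, 11.78 and 11.93 in the young non-arthritic mice. The old arthritic mice were below both old non-arthritic mice, and the young groups overlapped. The difference in old mice was -0.23 (SE 0.10, unadjusted p = 0.0521, limma adjusted p = 0.273). The second Spic probe set (1449134_s_at) differed by -0.12 (SE 0.19, adjusted p = 0.750) and its groups overlapped.

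In old mice, but not in young mice, the macrophage markers were also lower in arthritic than in non-arthritic mice by their mean. The mean log2 signal of 23 red pulp macrophage genes was 10.99 and 11.09 in the old arthritic mice, 11.12 to 11.15 in the old non-arthritic mice, 11.27 in both young arthritic mice and 11.08 to 11.18 in the young non-arthritic mice. The mean of 20 neutrophil genes was 11.61 and 12.08 in the old arthritic mice against 10.62 and 10.79 in the old non-arthritic mice, and 11.63 and 12.44 in the young arthritic mice against 10.97 to 11.94 in the young non-arthritic mice. The part of these cell types in the differences of Spic, Slc11a1 and Slc40a1 was not tested.

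Fth1, the ferritin heavy chain that oxidises iron for storage, had an almost constant signal. Probe set 1427021_s_at read 14.99 and 14.96 in the old arthritic mice, 14.94 and 14.92 in the old non-arthritic mice, 14.95 and 14.96 in the young arthritic mice, and 14.86, 14.84, 14.92 and 14.93 in the young non-arthritic mice. All 4 arthritic mice were above all 6 non-arthritic mice, as on 10.4% of all kept probe sets, but the highest signal was 1.11-fold the lowest. The differences of 0.05 (SE 0.08, limma adjusted p = 0.776) in old mice and 0.06 (SE 0.07, adjusted p = 0.641) in young mice did not pass the test. The second probe set, 1448771_a_at, overlapped between the old groups, at 14.52 and 14.66 in the arthritic and 14.52 and 14.47 in the non-arthritic mice. The highest signal of any probe set was 15.2 to 15.4 on each array, so Fth1 lay near the upper end of the scale, where an array compresses differences.

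The ferritin light chain gene Ftl1 was measured through probe sets that also match its pseudogene copy Ftl1-ps2, so the values belong to both. Probe set 1418364_a_at read 13.98 and 13.97 in the old arthritic mice, 13.81 and 13.71 in the old non-arthritic mice, 14.02 and 14.05 in the young arthritic mice, and 13.90, 13.80, 13.80 and 13.93 in the young non-arthritic mice. On this probe set every arthritic mouse was above every non-arthritic mouse, as on 1427021_s_at of Fth1 and on 10.4% of all kept probe sets. The other 2 light chain probe sets overlapped. With age in months in the fit, arthritic mice differed by 0.23 (SE 0.07, 95% interval 0.08 to 0.39, unadjusted p = 0.00722), which did not pass after adjustment (limma adjusted p = 0.0931). The dimmer probe set 1422301_at gave 0.34 (SE 0.10, adjusted p = 0.0880) and the brighter 1422302_s_at gave 0.07 (SE 0.07, adjusted p = 0.569).

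The call on the joint light chain signal depended on the settings. Adjusted p for 1418364_a_at was 0.0447 with a spread that followed signal intensity and 0.0188 with arrays weighted by quality. After a further quantile normalization its difference was 0.07 (adjusted p = 0.694). With age in the fit, the median difference as deposited was 0.15 over the brightest 10% of kept probe sets and 0.09 over all kept probe sets. After that step the brightest 10% gave -0.01, but the step sets the distributions of the arrays equal, so such a value follows from it. The part of a shift in scale in the joint light chain difference was not tested.

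Hepcidin transcripts were at or below the array median. Hamp, the gene for hepcidin, read 6.40 and 6.81 (1419197_x_at) in the old arthritic mice, 6.12 and 6.08 in the old non-arthritic mice, 6.50 and 6.33 in the young arthritic mice, and 6.09, 6.17, 6.02 and 6.17 in the young non-arthritic mice. Arthritic mice were higher on this probe set, but it stayed below the array median on all 10 arrays, and the other Hamp probe set (1419196_at), at 3.98 to 4.35, had its lowest values in the young arthritic mice. Neither was tested.

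Hamp2, a second mouse hepcidin gene, was kept through 2 arrays, old arthritic mouse 1 and old non-arthritic mouse 1, which exceeded the median by 0.02 and 0.05. Probe set 1436643_x_at read 6.98 and 6.80 in the old arthritic mice, 7.00 and 6.89 in the old non-arthritic mice, 6.74 and 6.64 in the young arthritic mice, and 6.52, 6.55, 6.55 and 6.67 in the young non-arthritic mice. Both old groups were above the young non-arthritic mice. Since the probe set passed the filter through old mice alone, no test of age is read from it, and the other Hamp2 probe set was below the median on all 10 arrays. Of the defining hepatocyte markers, Alb and Fgb were below the filter, Apoa1 was above the median on 2 arrays and Ttr on all 10.

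The promoters of Hamp and Hamp2 are shown because the genes are near copies, so a probe for one may also bind the transcript of the other. The 250 bases before each start come from RefSeq (GRCm38.p6, minus strand), Hamp at chr7:30944030-30944279 and Hamp2 at chr7:30924182-30924431. Capitals mark TTCTTGGAA, the site through which Stat3 is known to act on hepcidin, and GGCGCC, the element through which bone morphogenetic proteins (BMPs) act on it. Both were searched on both strands, and they do not overlap.
Hamp: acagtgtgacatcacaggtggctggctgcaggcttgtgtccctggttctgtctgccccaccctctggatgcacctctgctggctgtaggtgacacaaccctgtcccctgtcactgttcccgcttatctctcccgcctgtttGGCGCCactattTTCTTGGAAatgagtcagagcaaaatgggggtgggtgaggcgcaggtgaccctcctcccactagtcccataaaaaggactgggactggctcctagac
Hamp2: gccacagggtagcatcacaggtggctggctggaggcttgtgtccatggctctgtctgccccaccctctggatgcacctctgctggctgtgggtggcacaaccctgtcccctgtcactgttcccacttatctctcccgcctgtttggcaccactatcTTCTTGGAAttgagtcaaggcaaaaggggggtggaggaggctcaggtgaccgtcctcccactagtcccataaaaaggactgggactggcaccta
The windows were identical at 227 of 247 aligned bases (91.9%), with 6 bases in gaps. TTCTTGGAA began at -97 in Hamp and at -94 in Hamp2, and 0.365% of the 32851 promoters held it. GGCGCC began at -109 in Hamp and had no match in the Hamp2 window, and 9.59% of promoters held it.

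**Figure D2:**
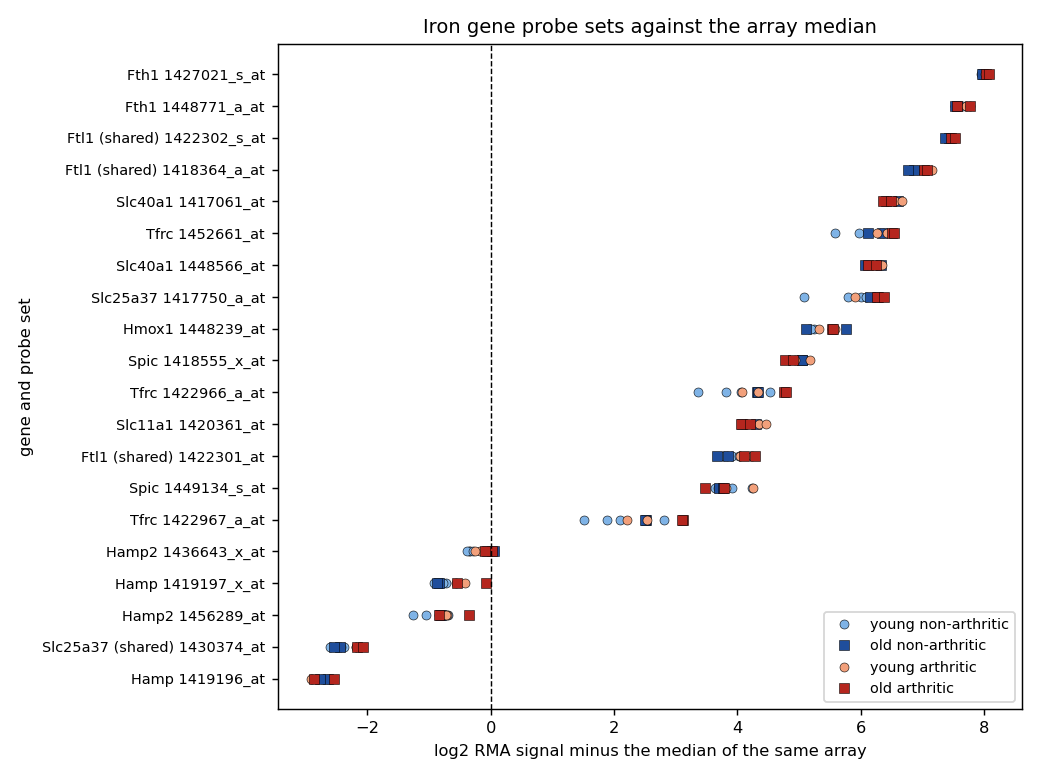
Log2 RMA signal minus the median of the same array (horizontal axis) for the 20 iron probe sets (vertical axis), 1 point per mouse, coloured by group, with a dashed line at the median. Both Hamp probe sets and 1 Hamp2 probe set lie below the line on all 10 arrays, and distances between probe sets of different genes do not compare amounts of RNA.

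Across the comparisons, no iron probe set was called. At a Benjamini-Hochberg adjusted limma p under 0.05, 0 of 13 were called for arthritis in old mice, where 0.0714% of all kept probe sets were called, and 0 of 13 in young mice, where 0.311% were called. With age in months in the fit, 0 of 13 were called for arthritis, where 2.26% of all were called. The test of whether arthritis acted unequally at both ages called none of 13, nor did the comparison of old with young non-arthritic mice, and none of all 23805 was called in either (0%). The slope per month called 0 of 13, where 0.0042% of all were called. Hamp2 is among these 13, and neither comparison of age is read for it, since old mice alone carried it through the filter. With background shares this low, a count of 0 among 13 does not set the iron genes apart from the rest.

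At an unadjusted p under 0.05, the counts were 0 of 13 in old mice (18.6% of all kept probe sets), 1 in young mice (Slc11a1, 18.2%), 0 for the unequal effect of arthritis at both ages (3.1%) and 0 at equal age (22.9%). Leaving out Hamp2, which old mice alone had carried through the filter, they were 0 of 12 between old and young non-arthritic mice (3.19%) and 2 of 12 for age in months (9.98%). The latter were Tfrc probe sets 1422966_a_at, at 0.11 per month (SE 0.04, adjusted p = 0.485), and 1422967_a_at, at 0.13 per month (SE 0.05, adjusted p = 0.468). The brightest Tfrc probe set, 1452661_at, had a smaller slope of 0.03 per month (SE 0.03, limma adjusted p = 0.749).

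The median log2 difference over the 8 genes was -0.004 in old mice, against 0.07 over all 11870 kept genes, with 4 genes positive and 4 negative. It was 0.14 against 0.11 in young mice, where all 8 values were positive and none was called. With age in the fit it was 0.05 against 0.11. By the values of single mice, the old arthritic mice were above all other arrays at 5 of 13 probe sets (3 of Tfrc, 1 of Slc25a37, 1 of Fth1), where 8.64% of all kept probe sets were. These 5 probe sets stand for 3 genes. With the median of each array subtracted, the old arthritic mice stayed highest on the Tfrc probe sets alone. On Slc25a37 old arthritic mouse 1 was then at 6.268, below old non-arthritic mouse 1 (6.272) and young arthritic mouse 2 (6.310). On 1427021_s_at of Fth1 it was at 8.031, below young arthritic mouse 2 (8.064). All arthritic mice were above all non-arthritic mice at 1 of 13 (10.4% of all), and, leaving out Hamp2, old above young non-arthritic mice at 2 of 12, 1 each of Slc25a37 and Spic (4.21% of all). In old mice 6 of 13 did not overlap between arthritic and non-arthritic mice, where 51.5% of all did not, and in young mice 3 of 13, where 31.9% did not.

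**Figure D3:**
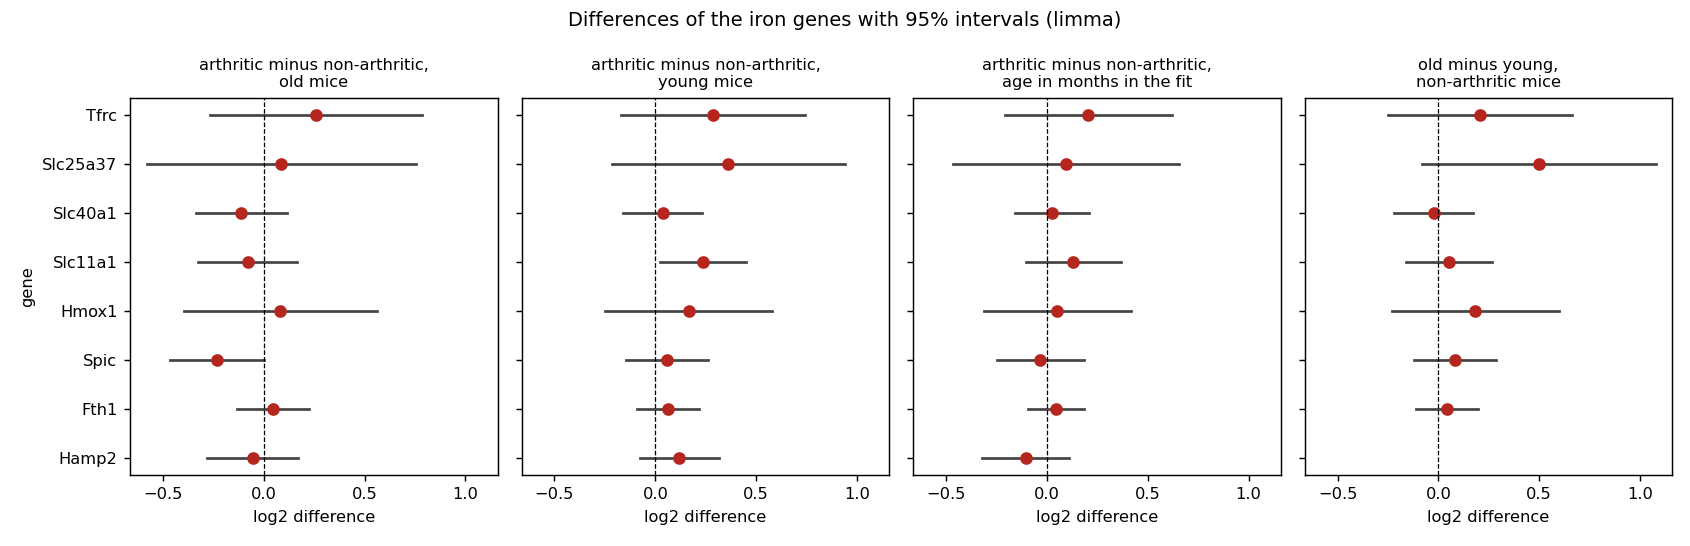
Log2 differences (horizontal axis) of the 8 tested iron genes (vertical axis) in 4 comparisons, with limma 95% confidence intervals as lines and the dashed line at 0. Intervals are widest for Tfrc, Slc25a37 and Hmox1 and narrowest for Fth1, the 1 interval that leaves out 0 is that of Slc11a1 in young mice (adjusted p = 0.237), and Hamp2 is not drawn for old minus young because old mice alone carried it through the filter.

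The members differed in how far they varied between mice. For Slc25a37 and the brightest Tfrc probe set much of it lay in 1 mouse. The SD over the 10 arrays was 0.29, 0.43 and 0.51 for the 3 Tfrc probe sets and 0.39 for Slc25a37, above that of 85.9% to 97.3% of all kept probe sets, whose median SD was 0.17. Their highest signal was 1.98-fold to 3.20-fold the lowest for Tfrc and 2.45-fold for Slc25a37. Without young non-arthritic mouse 2, the SD of Tfrc was 0.17 for 1452661_at, near the median of all kept probe sets. It was 0.31 for 1422966_a_at and 0.42 for 1422967_a_at, still above 89.2% and 94.9% of all. That of Slc25a37 was 0.19 (above 62.9% of all). Hmox1 came next, at an SD of 0.23 (above 74.3% of all) and a 1.59-fold range. Slc40a1, with SDs of 0.09 and 0.09, and Fth1, with SDs of 0.05 and 0.08, were above no more than 8.43% of all probe sets. The narrow SD of Fth1 was read near the upper end of the scale. Of the joint light chain probe sets, 1422302_s_at had an SD of 0.05, 1418364_a_at of 0.11 and the dimmer 1422301_at of 0.19, above 62.1% of all, so the ferritin probe sets were not alike in spread.

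**Figure D4:**
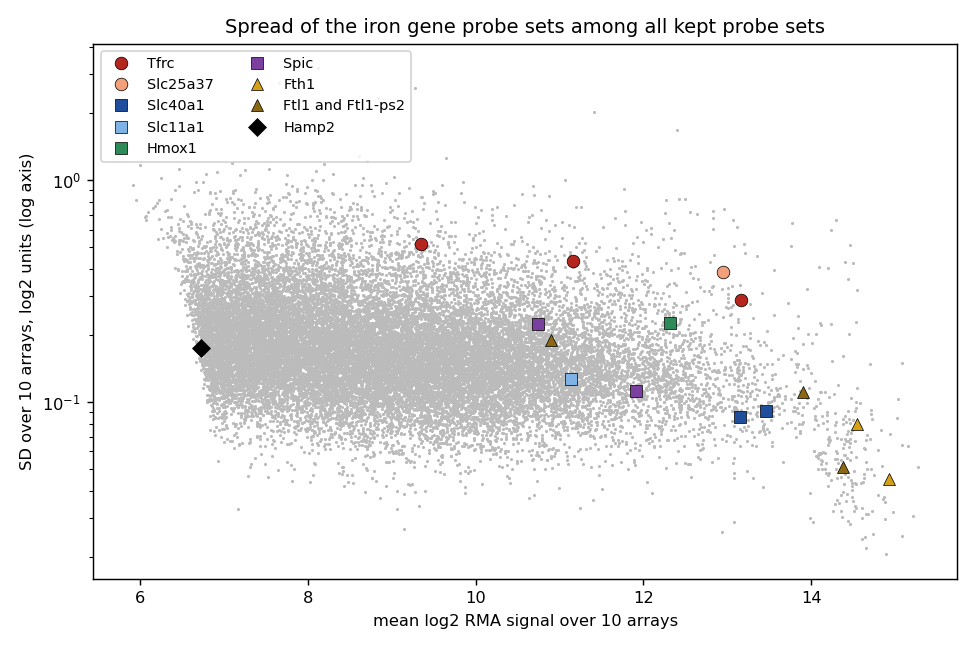
SD over the 10 arrays (vertical log axis, log2 units) against mean log2 RMA signal (horizontal axis) for the 23805 kept probe sets in grey and the iron probe sets in colour. Tfrc and Slc25a37, with SDs of 0.29 to 0.51 that include young non-arthritic mouse 2, lie above the bulk of probe sets of like signal, and Slc40a1 and Fth1 among the steadier ones.

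Tfrc and Slc25a37 went up and down with the erythroid genes of the same spleen. The mean log2 signal of 25 erythroid genes, none of them a member of the iron list, was 11.95 and 11.96 in the old arthritic mice, 11.73 and 11.65 in the old non-arthritic mice, 11.57 and 11.80 in the young arthritic mice, and 11.52, 10.74, 11.66 and 11.24 in the young non-arthritic mice. The extremes were the same mice as for Tfrc and Slc25a37. No erythroid gene of the 25 was called in any comparison, where at most 2.26% of all kept probe sets were. The median difference was 0.27 in old mice (25 positive) and 0.41 in young mice (24 positive). At an unadjusted limma p under 0.05 there were 2 of 25 in old mice (18.6% of all kept probe sets) and 3 of 25 in young mice (18.2%).

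Over the 10 arrays, Tfrc correlated with the erythroid mean with Pearson's r = 0.954 (permutation p = 0.00038, adjusted p = 0.00405 over 32 pairs of a member and a list) and Spearman's rho = 0.842 (permutation p = 0.00377, adjusted p = 0.0351). Without the 2 mice farthest from the median erythroid level r was 0.703, without young non-arthritic mouse 2 it was 0.858, and within groups, after subtracting group means, 0.943. Slc25a37 gave r = 0.970 (permutation p = 2e-05, adjusted p = 0.00064) and rho = 0.964 (permutation p = 3e-05, adjusted p = 0.00096), with 0.876, 0.920 and 0.978 in the same order. The mean of 14 proliferation genes also went with Tfrc, at r = 0.928 (permutation p = 0.00015, adjusted p = 0.0024) and rho = 0.830 (permutation p = 0.00489, adjusted p = 0.0351), and r without the 2 farthest mice was 0.774. With Slc25a37 it gave r = 0.855 (permutation p = 0.00102, adjusted p = 0.00816) and rho = 0.806 (permutation p = 0.00708, adjusted p = 0.0378), and 0.531 without the 2 farthest mice. Without young non-arthritic mouse 2, r with the proliferation mean was 0.896 for Tfrc and 0.735 for Slc25a37.

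Fth1 correlated with the erythroid mean at r = 0.816 (permutation p = 0.0054, adjusted p = 0.0346) and rho = 0.818 (permutation p = 0.00548, adjusted p = 0.0351). This r was 0.823 without the 2 farthest mice, but 0.569 within groups and 0.636 without young non-arthritic mouse 2. With the proliferation mean Fth1 gave r = 0.787 (permutation p = 0.0105, adjusted p = 0.0548) and rho = 0.891 (permutation p = 0.00104, adjusted p = 0.0166). There r was 0.390 within groups and 0.611 without young non-arthritic mouse 2. The erythroid mean gave r = -0.364 and rho = -0.406 with Slc40a1 (permutation adjusted p = 0.620 and 0.526), and r = -0.305 and rho = -0.188 with Spic (0.646 and 0.700). The red pulp macrophage mean gave r = 0.745 (permutation p = 0.012, adjusted p = 0.0548) and rho = 0.657 (permutation p = 0.0466, adjusted p = 0.186) with Slc11a1, which did not pass. Of 28 pairs of members, Tfrc with Slc25a37 had the highest r, 0.912 (permutation p = 0.00299, adjusted p = 0.0837) with rho = 0.806 (permutation p = 0.00724, adjusted p = 0.203), and r was 0.411 without the 2 mice farthest from the median of Tfrc. The share of erythroid cells in each spleen was not measured, and its part in the spread of Tfrc and Slc25a37 was not tested.

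**Figure D5:**
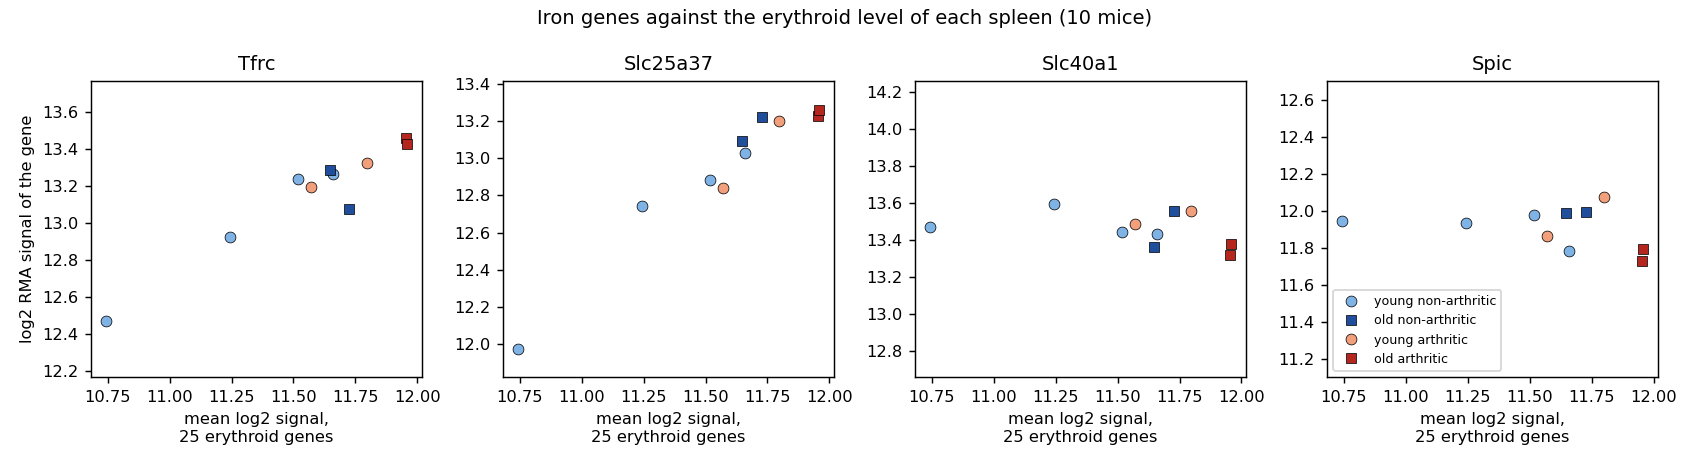
Log2 RMA signal of Tfrc, Slc25a37, Slc40a1 and Spic (vertical axes) against the mean log2 signal of 25 erythroid genes (horizontal axis), 1 point per mouse, coloured by group. Tfrc and Slc25a37 rise along the axis from young non-arthritic mouse 2 at 10.74 to the old arthritic mice at 11.96, and Slc40a1 and Spic do not.

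The named genes most like Tfrc over the 10 arrays were Rrm2 (r = 0.974), a subunit of ribonucleotide reductase, Ubp1 (0.967) and Rhd (0.965), a red cell blood group gene. Those most like Slc25a37 were Trim10 (0.990), Cdr2 (0.983) and Tmcc2 (0.982). For Slc40a1 they were Tspan4 (0.904), Serpinb6a (0.899) and 2310030G06Rik (0.889). Pla2g15, a lysosomal phospholipase, was most like Slc11a1 (0.920). Rhd and Trim10 belong to the erythroid list and Rrm2 to the proliferation list, and with 10 arrays and 11870 genes high values arise easily.

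Other genes of iron handling were read from 4 lists. Among 17 further uptake genes, 1 was called in 1 comparison, in which 2.26% of all kept probe sets were called: Pcbp2, an iron chaperone that also binds RNA, was higher in arthritic mice by 0.32 with age in the fit (SE 0.07, limma adjusted p = 0.0494). The call was lost when any 1 array other than those of young non-arthritic mice 2 and 4 was left out (adjusted p 0.0444 to 0.257 over all 10) and with a further quantile normalization (0.15, adjusted p = 0.372). The median of the 17 was 0.15 in that comparison, with all 17 values positive and 5 at an unadjusted p under 0.05 (22.9% of all kept probe sets), against a median of 0.11 over all kept genes. In old mice 0 of 17 were called (0.0714% of all kept probe sets), and 6 were higher and 1 lower at an unadjusted limma p under 0.05 (18.6% of all in either direction). The 4 with the smallest p were Lcn2, which binds bacterial siderophores, at 1.80 (SE 0.38, adjusted p = 0.0934), Tfr2, the second transferrin receptor, at 0.58 (adjusted p = 0.110), Ltf, lactoferrin, at 1.56 (adjusted p = 0.118) and Slc11a2, an endosomal iron transporter, at 0.40 (adjusted p = 0.118). In young mice 0 of 17 were called (0.311% of all kept probe sets). There 7 were higher and 0 lower at an unadjusted limma p under 0.05, where 18.2% of all were in either direction. For the unequal effect of arthritis at both ages 0 were higher and 3 lower (3.1% of all). Between old and young non-arthritic mice 1 was higher and 2 were lower (3.19% of all). The differences of Lcn2 and Ltf in young mice were 0.74 and 0.57. Old minus young non-arthritic mice gave -1.25 for Lcn2 and -1.13 for Ltf (limma adjusted p = 0.997 for both). Lcn2 and Ltf also belong to the neutrophil list, in which 19 of 20 genes had a positive difference in old mice, with a median of 1.26. None of the 20 was called there (0.0714% of all kept probe sets). At an unadjusted limma p under 0.05, 16 were higher and 0 lower, where 18.6% of all were in either direction. The part of neutrophils in these values was not tested.

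Of 15 further recycling and export genes, none was called in any of the 6 comparisons by limma, where at most 2.26% of all kept probe sets were. Haptoglobin, Hp, which captures free hemoglobin, differed by 1.07 with age in the fit (SE 0.31, adjusted p = 0.0874). It was 1 of 3 genes of the 15 at an unadjusted p under 0.05 there, where 22.9% of all kept probe sets were. In young mice 3 of the 15 were higher and 1 lower at an unadjusted p under 0.05, where 18.2% of all kept probe sets were in either direction. The lower one was the transporter Flvcr2 at -0.47 (SE 0.17, limma adjusted p = 0.212). The higher ones were the heme exporter Flvcr1 at 0.29 (SE 0.09, adjusted p = 0.183), the heme transporter Slc48a1 at 0.28 (SE 0.11, adjusted p = 0.226) and Nfe2l2, a regulator of the oxidative stress response, at 0.18 (SE 0.07, adjusted p = 0.242). Of 12 further storage and sensing genes, none was called either. In young mice 2 were at an unadjusted p under 0.05 (18.2% of all kept probe sets). They were Hscb, of iron-sulfur cluster assembly, at 0.33 (SE 0.12, adjusted p = 0.225) and Ncoa4, the receptor that sends ferritin for degradation, at 0.31 (SE 0.13, adjusted p = 0.258). Between old and young non-arthritic mice 2 were higher and 1 lower at an unadjusted limma p under 0.05, where 3.19% of all kept probe sets were in either direction. These were Hscb at 0.37, Isca1 at 0.46 and Fbxl5 at -0.23 (limma adjusted p = 0.997 for each).

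None of 18 further genes of the hepcidin pathway was called in any comparison, where at most 2.26% of all kept probe sets were. For age in months 1 of the 18 was higher and 4 were lower at an unadjusted limma p under 0.05, where 9.98% of all were in either direction. In old mice 11 of the 18 had a negative difference, with a median of -0.14 against 0.07 over all kept genes, and 3 were at an unadjusted p under 0.05, a share near the 18.6% of all kept probe sets. All 3 were lower, the receptors Acvr2a at -0.58 (SE 0.17, adjusted p = 0.144) and Bmpr2 at -0.59 (SE 0.23, adjusted p = 0.228), and the signal transducer Smad4 at -0.20 (SE 0.08, adjusted p = 0.252). In young mice Stat3 differed by 0.30 (SE 0.10, adjusted p = 0.181) and Neo1, a hemojuvelin receptor, by 0.44 (SE 0.16, adjusted p = 0.209).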

How the data were processed

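Total RNA from a piece of each of 10 spleens was hybridised to 1 Affymetrix array per mouse. The authors deposited, per probe set and array, a log2 signal from RMA per the submitters' processing notes (version not given in the sources used here). RMA sets the distributions of the arrays equal before it summarises probes, and the number of arrays limits the precision. The 64 control probe sets were left out, since the names of 61 appear shifted against their values. Probe sets were named from the platform table, of which 34945 had 1 gene symbol, 932 several and 9160 none. A gene stood for its kept probe set of highest mean.

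Linear models were run over the 23805 kept probe sets (limma 3.58.1, R 4.3.3, lmFit and eBayes) with all 10 arrays and 4 groups. A second fit had arthritis and age in months. P-values were adjusted by Benjamini-Hochberg over all kept probe sets (threshold 0.05) and are two-sided. Correlations used 100000 permutations, two-sided (numpy 2.4.6). The script was tested on simulated data. Alternatives were another filter or none, normalization, centring, spread estimate, array weights, replicate block, groups in the fit, probe set averaging and leaving out each array. Every listed gene was named; other iron genes were named if called, or else by smallest p (4 at most per list). The genes, the marker lists and the promoter motifs were chosen with earlier results of these data known. The replicates are separate mice per the labels. The paper on these mice states no method for the arrays.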

Additional observations from a re-analysis of the deposited data

How the results depend on the processing

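The count of calls covers the 13 kept iron probe sets with a single symbol, among them that of Hamp2, for which no test of age is read. It was 0 in each of the 6 comparisons and under every alternative tried, and leaving out each array gave 0 to 0. The joint light chain probe sets were outside this count. A joint light chain probe set was called for arthritis with age in the fit under some alternatives. Its limma adjusted p was 0.0447 with a spread that followed signal intensity and 0.0188 with array weights. Among the genes counted, the lowest adjusted p over these settings was 0.144 (Spic in old mice, -0.35, after a further quantile normalization). Of 938 values of the genes counted under an alternative, 37 moved by over 1 standard error and 44 changed sign, none of them past the threshold. After subtracting group means, correlations of same-numbered arrays were -0.525 to 0.356. In a group of 2 the arrays then mirror each other, so these values cannot decide whether replicate numbers pair the mice. With the replicate number as a block 0 of 13 iron probe sets were called in each comparison, while Pcbp2 lost its call (adjusted p = 0.106). Pcbp2 also lost it with the stricter filter (adjusted p = 0.0571) and with arrays centred on their median (adjusted p = 0.0737). Over all kept probe sets, arthritis with age in the fit called 538, of which 80.1% were higher, against 177 (66.7% higher) after quantile normalization again, 274 with centring, 238 with the stricter filter and 29 with the block, and against 4857 with array weights and 5475 without a filter. The cause was not tested. The spread without young non-arthritic mouse 2 was an alternative chosen after seeing the data. With 2 to 4 arrays a group, differences could be missed in any gene, and most easily in Tfrc, Slc25a37 and Hmox1, whose intervals were widest. In the simulated data, changes of 0.5 log2 units were recovered in 12% of changed probe sets for arthritis in old mice and in 36% in young mice.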
